A study of Mus musculus with 12 samples.

Results

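Interferon-stimulated genes were followed across SVR angiosarcoma xenografts treated with a MEK inhibitor, a VEGFR inhibitor or both. The group comprised 37 genes named by symbol, from Ifit1 to Sp100, and all 37 were found by exact gene name among the 54232 gene identifiers of the count table. Symbols were chosen for their known induction by interferon, but with earlier results of these data known. Of the 37 genes, 22 passed the filter on low counts and were tested, within 12897 genes tested in all, and 15 did not.

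SVR is a Ras-transformed mouse endothelial line that forms angiosarcoma-like tumors under the skin of athymic nude mice, which lack T cells. The strain label reads C57BL/6, and whether it describes the hosts or the line was not given. The mice were 8 to 12 weeks old, and tumors had 3 to 7 days to establish before daily oral gavage began. Control mice received the vehicle, and the other groups received trametinib at 1 mg/kg, an inhibitor of the MAPK kinase MEK, cediranib at 3 mg/kg, an inhibitor of the VEGF receptors, or both drugs at these doses (combination). Each of the 4 groups held 3 tumors, all from 1 cell line, so the p-values measure the spread between these tumors. The labels have dosing go on until tumors ulcerated or grew too large, while the study also held an experiment with a common harvest day. Which of them these tumors came from was not given, so time on treatment may differ between tumors. Libraries were made from total tumor RNA by exome capture, which the paper chose because degradation of the tumor RNA was relatively common. RNA quality by tumor was not examined here. Because the host and the tumor line are both mouse, the reads of tumor cells, stroma and skin are mixed.

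Type I interferons bind the receptor pair Ifnar1 and Ifnar2, and the kinases Jak1 and Tyk2 then signal to a complex with Stat2 and Irf9 that binds the interferon-stimulated response element (ISRE) in promoters. Interferon gamma acts through another promoter element, the gamma-activated sequence (GAS). The induced proteins block viral RNA and its translation, sense foreign nucleic acid or feed back on the pathway, and macrophages, fibroblasts and endothelial cells can all express them.

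The libraries held 9478865 to 11666094 counts, with levels given as CPM (counts relative to library totals scaled by TMM). A tumor at 0 counts can still hold up to 3 counts by counting error alone, or 0.251 to 0.349 CPM. Endothelial markers, the lineage of the tumor line, were detected, with a summed level of 190 to 410 CPM in control tumors (9 genes, of which 8 were tested). The groups also differed in markers of other cells. Epidermal markers (10 genes) summed to 20.6 to 617 CPM in control, 4.02 to 9.71 CPM in trametinib, 44.5 to 2840 CPM in cediranib and 2918 to 4414 CPM in combination treated tumors. In whole tumor RNA, fewer cells of a type and less RNA per cell cannot be told apart.

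Sequence around the transcription start was available for 27 members (RefSeq, GRCm38.p6, 250 bases before to 50 after the start). The ISRE core was searched on both strands as GAAANNGAAA, which reads TTTCNNTTTC on the other strand, and overlapping matches were counted. It was present in 16 of the 27 members (59.3%), against 3.99% of 27025 genes, or 3.43% of 32817 promoters. The GAS motif was searched as TTCNNNGAA, which is its own reverse complement, and was present in 7 members (25.9%), against 9.55% of genes, or 8.29% of promoters. A match is a description of the sequence and not a test of binding. The upstream sequences of 4 members that differed in signal are shown. Isg15 was barely counted, and Gbp2 was the most abundant member. Ifit1 and Rsad2 had the largest folds for combination against control among the members tested. Each sequence runs 5′ to 3′ on the strand of its gene up to the start, and capitals mark ISRE core matches.

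Ifit1: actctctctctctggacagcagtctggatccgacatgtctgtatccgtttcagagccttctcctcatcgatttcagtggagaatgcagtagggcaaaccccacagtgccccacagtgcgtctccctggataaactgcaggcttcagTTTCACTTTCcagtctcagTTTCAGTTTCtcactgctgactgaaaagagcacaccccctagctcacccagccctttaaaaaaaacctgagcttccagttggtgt
Rsad2: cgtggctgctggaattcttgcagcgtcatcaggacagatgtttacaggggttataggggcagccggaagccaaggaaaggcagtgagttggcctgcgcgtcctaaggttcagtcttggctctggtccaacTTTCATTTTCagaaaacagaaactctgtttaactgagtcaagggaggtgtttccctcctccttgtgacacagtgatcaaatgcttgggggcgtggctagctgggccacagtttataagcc
Isg15: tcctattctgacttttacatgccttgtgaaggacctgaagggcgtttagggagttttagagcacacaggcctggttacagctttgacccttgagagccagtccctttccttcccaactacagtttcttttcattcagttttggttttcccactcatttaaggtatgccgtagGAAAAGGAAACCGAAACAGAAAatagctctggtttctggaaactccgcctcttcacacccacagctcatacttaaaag
Gbp2: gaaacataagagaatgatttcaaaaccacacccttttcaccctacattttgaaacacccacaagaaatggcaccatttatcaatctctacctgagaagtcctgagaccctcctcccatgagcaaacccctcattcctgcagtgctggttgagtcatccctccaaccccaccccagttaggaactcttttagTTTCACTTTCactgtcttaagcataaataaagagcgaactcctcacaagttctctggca

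The Ifit1 sequence lies at chr19:34640639-34640888 on the plus strand and holds 2 matches, which begin 104 and 85 bases before the start. Rsad2, at chr12:26456453-26456702 on the minus strand, has 1 match, 120 bases before the start. Isg15, at chr4:156200819-156201068 on the minus strand, has 3 overlapping matches, which begin 78, 72 and 66 bases before the start. Gbp2, at chr3:142620413-142620662 on the plus strand, has 1 match, 59 bases before the start. No ISRE core match was present in the windows of Ifit2, which has a GAS match, or Irf9.

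**Figure D1:**
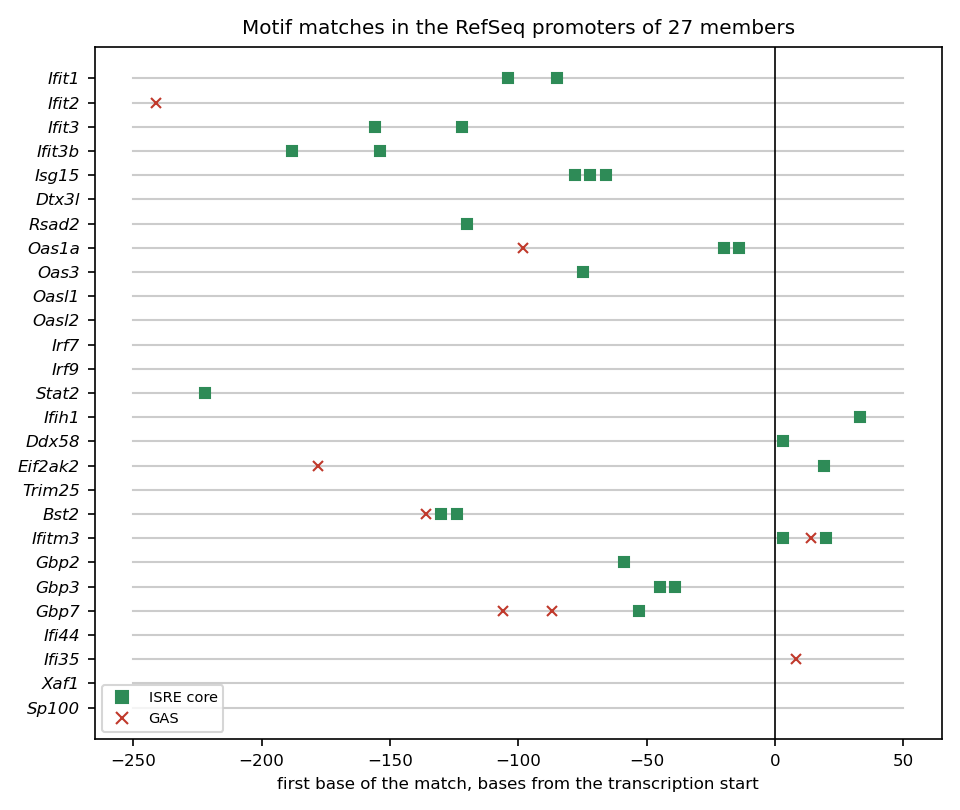
Position of ISRE core matches (squares) and GAS matches (crosses) in the promoter window of each of the 27 members with a RefSeq entry, in bases from the transcription start (x axis). The 3 overlapping Isg15 matches and the 2 Ifit1 matches lie upstream of the start, whereas the ISRE core matches of Ifih1, Ddx58, Eif2ak2 and Ifitm3 lie just after it.

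Signal of the members differed widely when expressed per kilobase of gene length. Gbp2, a guanylate binding GTPase of cell-autonomous immunity, averaged 20.7 CPM per kilobase over the 12 tumors, and Ifitm3, a membrane protein that hinders viral fusion, averaged 16.8. Ifit1, which binds viral RNA lacking host cap methylation, averaged 5.02, Gbp3 4.95 and Gbp7 3.29 CPM per kilobase. These 5 members were followed by Irf9 (2.25), Rsad2 (2.20) and Ifih1 (2.18 CPM per kilobase), 3 genes whose tumors overlapped each other on this scale. At the other end, Zbp1, a sensor of Z-form nucleic acid, averaged 0.0350 CPM per kilobase. Because probes capture genes unequally, these levels rank signal in the libraries and not molecules in the cells.

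**Figure D2:**
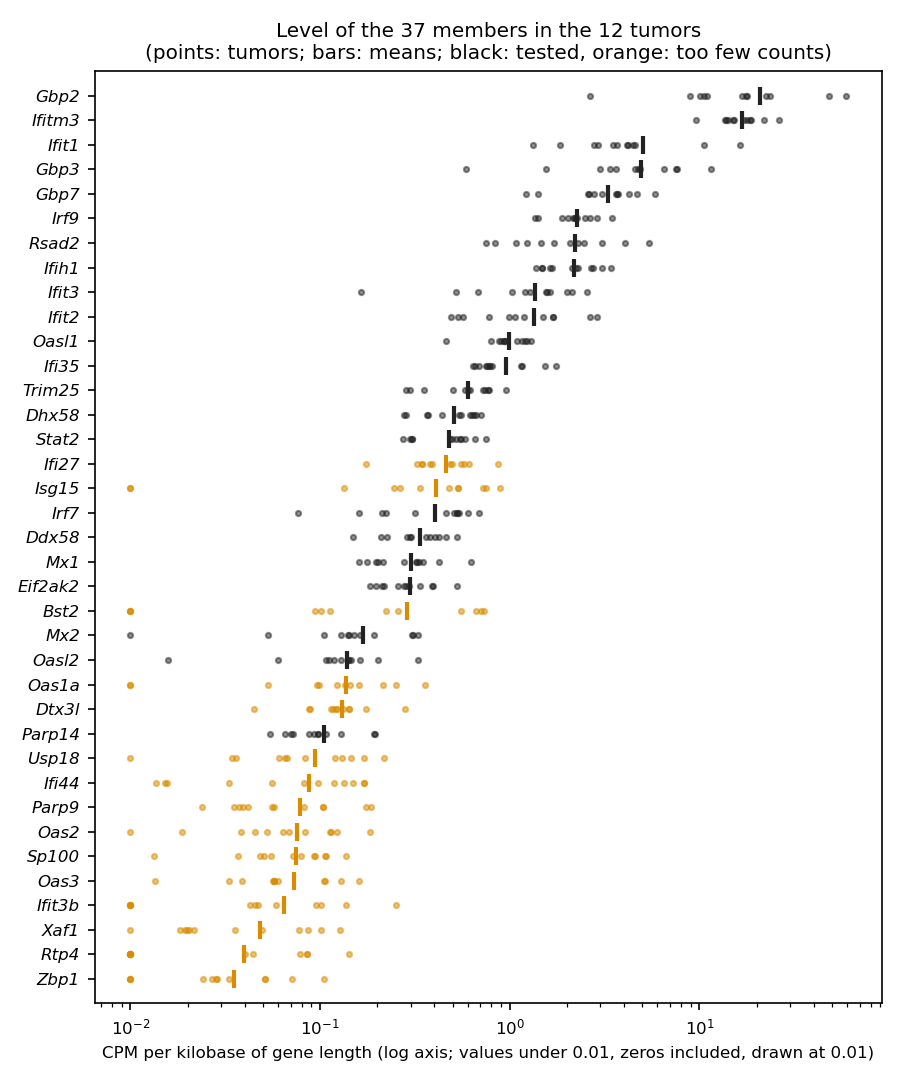
CPM per kilobase of gene length (log x axis) for the 37 members, ordered by their mean (bars), with 1 point per tumor and values under 0.01 drawn at 0.01. Gbp2 and Ifitm3 lead, and the 15 members with too few counts to test (orange) fill most of the lower end.

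Isg15, the ubiquitin-like modifier taken as the marker of the response, was barely detected. It had 40 counts over the 12 libraries, between 0 and 8 per tumor. Its level was 0.255, 0.101 and 0.404 CPM in control, 0.363, 0 and 0.670 CPM in trametinib, 0.200, 0.567 and 0 CPM in cediranib and 0.404, 0.545 and 0.186 CPM in combination treated tumors. The 4 groups overlapped, and a difference in Isg15 was not detectable at these counts. The other 3 genes of the ISG15 system, the deconjugating protease Usp18 and the partners Dtx3l and Parp9, which overlap on opposite strands, were also too low to test. Dtx3l, the most abundant of the 4 by CPM, was at 0.255, 0.811 and 0.505 CPM in control, 0.999, 0.698 and 0.753 CPM in trametinib, 0.500, 1.61 and 0.670 CPM in cediranib and 0.707, 0.817 and 0.650 CPM in combination treated tumors, and these groups overlapped too. The other untested members were Ifit3b, the synthetases Oas1a, Oas2 and Oas3, the sensor Zbp1, the tether Bst2, and Ifi44, Ifi27, Xaf1, Rtp4 and Sp100. Across the 15 no tumor had more than 17 counts, mean levels ran from 0.0845 to 0.748 CPM, and 9 had a tumor at 0 counts.

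Trametinib against control asks what MEK inhibition alone does to these genes. Of the 22 members tested, 19 had a log2 fold change above 0, and their median was 0.28, against 0.01 over all genes tested, of which 50.6% were above 0. None was called (FDR of 0.05 and absolute log2 fold change of at least 1.5, edgeR's quasi-likelihood test), against 2.4% of all genes, and 0 members had an unadjusted p under 0.05. DESeq2 and edgeR's likelihood ratio test also called 0 members here, as they did in the other contrasts with 0 calls. The smallest FDR was 0.345, for Ifit1. In 4 members, Ifit1, Mx2, Oasl2 and Ifi35, the 3 trametinib treated tumors lay above the 3 control tumors, or 18.2% of the 22. Over all genes tested 12.9% lay apart in this direction, and 12.9% lay apart in the lower direction, where 0 members did. Without control replicate 3, 15 of 22 members were above 0 and the median was 0.14, whereas without control replicate 2 it was 20 of 22 and 0.58.

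Cediranib against control asks the same of VEGFR inhibition. Here 17 of 22 members had a log2 fold change above 0, with a median of 0.37, against -0.00 over all genes. No member was called, against 0% of all genes, and 1 member, Eif2ak2, had an unadjusted p under 0.05. Its groups were also the 1 pair among members that did not overlap, in the higher direction, against 4.31% of all genes, and 0 members lay apart in the lower direction, against 3.45%. The median was 0.11 without control replicate 3, 0.10 without cediranib replicate 2 and 0.60 without cediranib replicate 3.

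Combination against control asks what both drugs together do, and here 1 member, Ifit1, was called higher. Members called made up 4.55% of the 22, near the 3.61% of all genes called in this comparison, and at an FDR of 0.05 alone the same 1 member passed, against 9.98% of all genes. The log2 fold change was above 0 in 19 of 22 members. Their median was 0.68, against 0.00 over all genes, of which 50.1% were above 0. In 5 members, or 22.7%, the 3 combination treated tumors lay above the 3 control tumors, against 15.6% of all genes. These were Ifit1, Ifit2, Rsad2, Oasl2 and Irf9. In the lower direction 0 members lay apart, against 15.7% of all genes. The median was 0.46 without control replicate 3 and 0.43 without combination replicate 2.

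**Figure D3:**
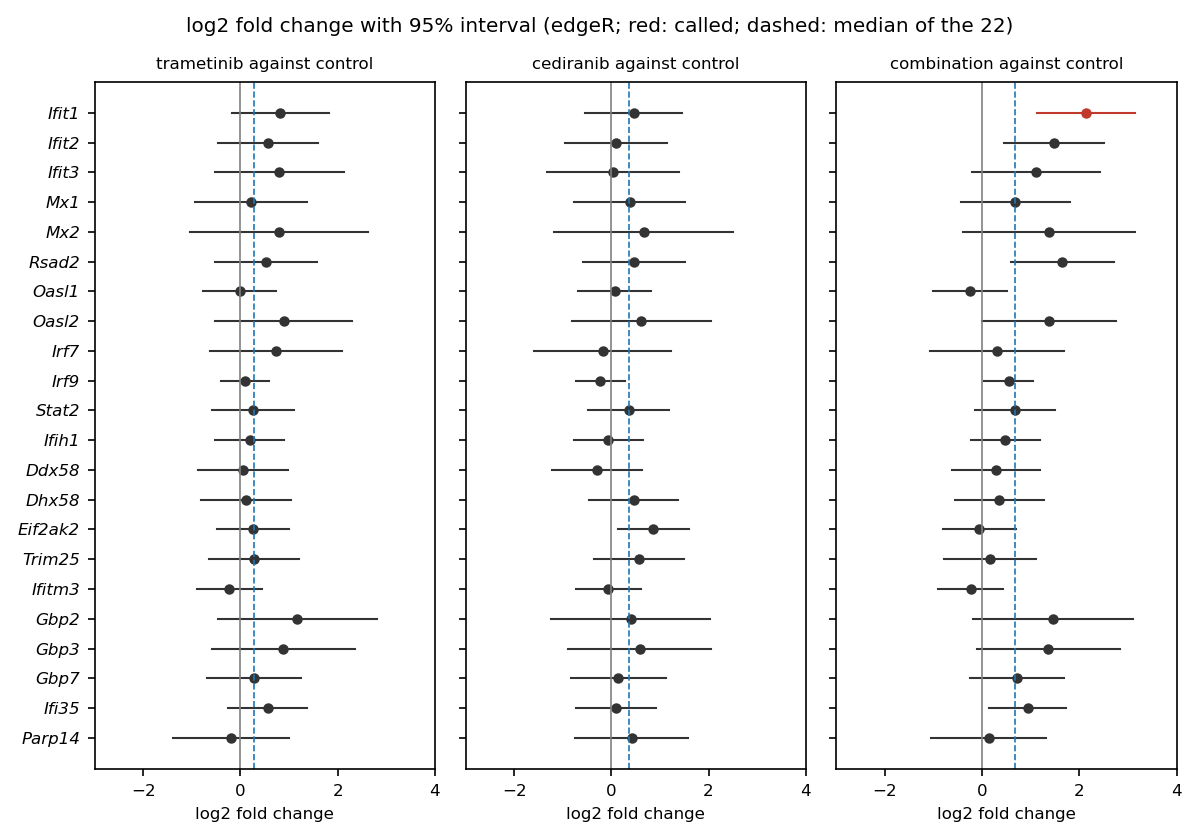
log2 fold change against control of each of the 22 tested members (points) with its 95% interval (lines), for trametinib, cediranib and combination treated tumors, with the median of the 22 dashed. The 1 called value (red) is that of Ifit1 in combination treated tumors, and the median there is 0.68.

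Of the IFIT family, which binds foreign RNA and blocks its translation, 3 of 4 genes were tested, and they lie side by side on chromosome 19. Ifit1 (ENSMUSG00000034459, chr19:34640871-34650009, GRCm38) measured 7.75, 7.40 and 3.54 CPM in control, 11.8, 12.1 and 9.29 CPM in trametinib, 9.79, 11.1 and 4.88 CPM in cediranib and 28.0, 43.2 and 11.1 CPM in combination treated tumors. Combination replicates 1 and 2 stood well above every other tumor, while combination replicate 3 lay among the trametinib treated tumors and close to cediranib replicate 2. The group means were 6.23 ± 2.34 CPM in control and 27.4 ± 16.0 CPM in combination treated tumors (SD, n = 3 each). Ifit1 rose by 2.13 on the log2 scale against control (SE 0.46, edgeR FDR = 0.0155). The call was lost without control replicate 3 (1.85, FDR = 0.0665) and without combination replicate 2 (1.64, FDR = 0.0582).

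Combination against cediranib asks what trametinib adds to cediranib, and combination against trametinib asks what cediranib adds to trametinib. Ifit1 also rose against cediranib, by 1.68 (SE 0.45, edgeR FDR = 0.0447). This 1 call, or 4.55% of members, stood against 2.45% of all genes, and the 1 member past the FDR alone stood against 7.68%. The call held without control replicate 3 (FDR = 0.0405) or combination replicate 3 (FDR = 0.0154) and was lost without any 1 of the other 10 tumors, with FDRs of up to 0.159 and log2 fold changes of 1.20 to 1.90. It was also lost when the fit held the 6 libraries of these groups alone (FDR = 0.0890). Against trametinib the log2 fold change of Ifit1 was 1.31 (SE 0.45, FDR = 0.159), with 0 members called against 0.675% of all genes. Leaving out 1 tumor gave Ifit1 0.83 to 1.69 against trametinib, with edgeR FDRs of 0.103 to 0.392. Trametinib averaged over both cediranib states gave Ifit1 a log2 fold change of 1.25 (SE 0.32, edgeR FDR = 0.0199). That passed the FDR, as 16.7% of all genes did, but not the minimum fold, so 0 members were called there, against 3.3% of all genes. For cediranib averaged over both trametinib states Ifit1 had 0.88 (SE 0.32, FDR = 0.217), with 0 members called against 0.62% of all genes. The interaction of the drugs on Ifit1 was 0.85 with a 95% interval of -0.54 to 2.25 (edgeR FDR = 0.822), and 0 members were called for interaction, against 0% of all genes.

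Ifit2 was at 3.07, 4.66 and 2.22 CPM in control, 3.90, 4.19 and 6.61 CPM in trametinib, 2.10, 6.62 and 1.91 CPM in cediranib and 11.3, 10.4 and 5.85 CPM in combination treated tumors. The combination treated tumors lay above the control tumors, but replicate 3 fell below the highest trametinib and cediranib treated tumors. Its log2 fold change against control was 1.47 (SE 0.47, edgeR FDR = 0.0693) and was not called. Ifit3, on the same stretch, had 1.10 (SE 0.61, FDR = 0.267). Of the Ifit3 transcript, 51.2% of 50-base windows also occur in the near copy Ifit3b, so reads may be split or lost between these 2 genes, whereas Ifit2 shares 0 windows and Ifit1 shares 7.13%, mostly with Ifit1bl2. The tumor values of Ifit2, and of Eif2ak2 below, are given because of what they showed, outside the rule for members shown in full.

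Rsad2, or viperin, makes a nucleotide that ends viral RNA chains. It was at 7.41, 5.37 and 3.64 CPM in control, 9.90, 4.66 and 9.04 CPM in trametinib, 6.29, 13.2 and 3.25 CPM in cediranib and 17.6, 23.5 and 10.7 CPM in combination treated tumors. All 3 combination treated tumors exceeded the control and trametinib treated tumors, and cediranib replicate 2 lay inside their range. The log2 fold change against control was 1.65 (SE 0.48, edgeR FDR = 0.0506), just outside the threshold, and 1.13 against trametinib (SE 0.47, FDR = 0.242). Rsad2 was called against control under 7 other ways of processing, such as DESeq2 (FDR = 0.00620) or RLE factors (FDR = 0.0489), and in 3 of the 12 fits that left out a tumor. Mx1 and Mx2, dynamin-like GTPases that trap viral ribonucleoproteins, had log2 fold changes of 0.68 and 1.38 against control, neither called, and the annotation lists Mx2 as a polymorphic pseudogene.

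**Figure D4:**
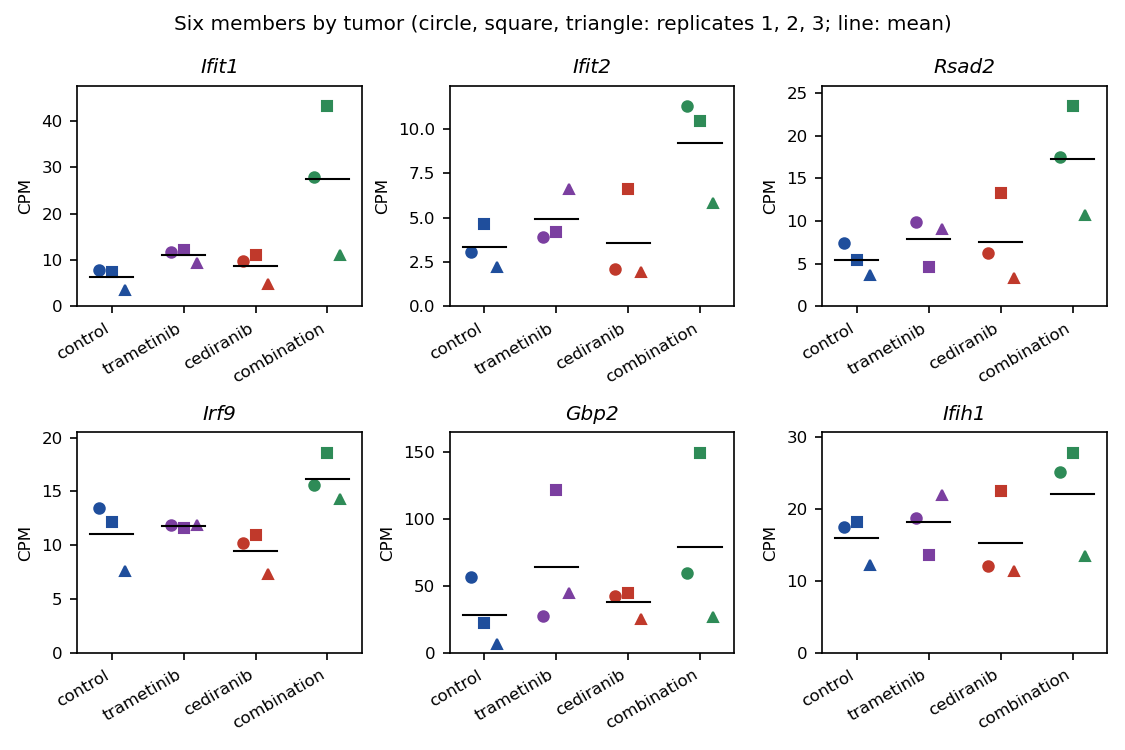
CPM of 6 members in each tumor (y axes from 0), by treatment, with replicates 1, 2 and 3 as circle, square and triangle and the group mean as a line. For Ifit1, combination replicates 1 and 2 (28.0 and 43.2 CPM) stand apart, and replicate 3 is the lowest of the control, cediranib and combination groups in all 6 genes.

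Of the OAS family, whose active enzymes make the 2-5A second messenger that activates RNase L, 2 of 5 genes were tested. Oasl1, the more abundant, was at 3.15, 2.33 and 2.42 CPM in control, 2.09, 3.38 and 2.43 CPM in trametinib, 3.20, 2.84 and 2.30 CPM in cediranib and 3.03, 2.45 and 1.21 CPM in combination treated tumors. The 4 groups overlapped, and its log2 fold change for combination against control was -0.25 (95% interval -1.01 to 0.51, edgeR FDR = 0.698). Oasl2 had 1.37 in the same comparison (SE 0.63, FDR = 0.187) at a mean of 0.883 CPM over the 12 tumors.

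All 3 transcription factors were tested. Irf9, the DNA-binding part of the ISRE complex, was at 13.5, 12.2 and 7.58 CPM in control, 11.9, 11.6 and 11.9 CPM in trametinib, 10.2, 10.97 and 7.27 CPM in cediranib and 15.6, 18.6 and 14.3 CPM in combination treated tumors. The 3 combination treated tumors were the 3 highest of the 12, yet the differences were small. The log2 fold change was 0.54 against control (SE 0.23, edgeR FDR = 0.149), 0.45 against trametinib (SE 0.23, FDR = 0.326) and 0.77 against cediranib (SE 0.23, FDR = 0.0637). Irf9 overlaps Rnf31 on the same strand, with 1.82% of its 50-base windows shared. Stat2, its partner, and Irf7, which amplifies interferon production, had log2 fold changes of 0.68 and 0.31 for combination against control, neither called.

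Of the nucleic acid sensors and their partners, 5 of 6 genes were tested. Ifih1, or MDA5, a sensor of long double-stranded RNA, was at 17.5, 18.1 and 12.1 CPM in control, 18.7, 13.6 and 21.9 CPM in trametinib, 12.1, 22.4 and 11.3 CPM in cediranib and 25.05, 27.8 and 13.4 CPM in combination treated tumors. Combination replicates 1 and 2 were the highest of the 12, and replicate 3 lay among the control tumors, with a log2 fold change of 0.47 against control (95% interval -0.24 to 1.18, edgeR FDR = 0.383). Ddx58, or RIG-I, Dhx58, or LGP2, and the RIG-I ubiquitin ligase Trim25 had 0.28, 0.35 and 0.16, and none was called.

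Eif2ak2, or PKR, a kinase that halts translation when it meets double-stranded RNA, had another pattern. It was at 0.937, 1.72 and 1.01 CPM in control, 1.45, 1.51 and 1.42 CPM in trametinib, 2.698, 1.99 and 2.01 CPM in cediranib and 1.31, 1.09 and 1.11 CPM in combination treated tumors. The 3 cediranib treated tumors were the 3 highest of the 12, and the combination treated tumors lay below both single drug groups. With 10 to 27 counts per tumor, the log2 fold change was 0.87 for cediranib against control (SE 0.34, edgeR FDR = 0.999) and -0.92 for combination against cediranib (SE 0.34, FDR = 0.120). The interaction was -1.18 (95% interval -2.23 to -0.14, edgeR FDR = 0.682). None of these passed the correction over all genes. Against cediranib, 2 members lay apart higher, Ifit1 and Irf9, against 14.1% of all genes, and Eif2ak2 lay apart lower, against 14.3%. Against trametinib, 2 lay apart higher, Rsad2 and Irf9, against 12.4% of all genes, and Eif2ak2 again lower, against 11.8%.

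Ifitm3, the 1 membrane factor tested, was at 10.2, 17.7 and 9.40 CPM in control, 10.3, 9.54 and 12.1 CPM in trametinib, 9.29, 14.8 and 11.7 CPM in cediranib and 12.6, 12.5 and 6.50 CPM in combination treated tumors. The groups overlapped, and the log2 fold change for combination against control was -0.24 (95% interval -0.90 to 0.43, edgeR FDR = 0.664). Of its 50-base windows, 10.0% occur in other genes.

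The 3 guanylate binding proteins, large GTPases that attack intracellular pathogens and respond strongly to interferon gamma, lie on chromosome 3 and were tested. Gbp2 was at 56.1, 22.4 and 6.67 CPM in control, 27.6, 121 and 44.2 CPM in trametinib, 42.2, 44.9 and 25.5 CPM in cediranib and 59.5, 149 and 26.7 CPM in combination treated tumors. Trametinib replicate 2 and combination replicate 2 stood apart from their own groups, and all 4 groups overlapped. Its log2 fold change for combination against control was 1.46 with a 95% interval of -0.18 to 3.11 (edgeR FDR = 0.238). Gbp3 and Gbp7 had 1.36 and 0.72, neither called. Ifi35, which binds the interferon-induced protein Nmi, was at 1.19, 1.32 and 1.11 CPM in control, 1.36, 1.98 and 2.01 CPM in trametinib, 1.40, 1.13 and 1.34 CPM in cediranib and 3.03, 2.63 and 1.30 CPM in combination treated tumors. Its trametinib treated tumors lay above the control tumors, combination replicate 3 did not, and the log2 fold change for combination against control was 0.93 (SE 0.37, FDR = 0.124). Parp14, a mono-ADP-ribosyltransferase, had 0.13.

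Within the control, cediranib and combination groups, the 22 members tended to be low in the same tumors. In the trametinib group, replicates 1, 2 and 3 were the lowest for 7, 8 and 7 members. Control replicate 3, cediranib replicate 3 and combination replicate 3 were each the lowest of their group for 19 of the 22 members, whereas they were the lowest of their group for 35.1%, 32.5% and 37.6% of all genes tested. Combination replicate 2 was the highest of the 12 tumors for 11 members, against 8.78% of all genes, and combination replicate 1 for 5, against 6.36%. The mean of the members, centred on each gene's mean log2 CPM, was -0.97 in control replicate 3, -0.71 in cediranib replicate 3 and -0.24 in combination replicate 3. The other 9 tumors lay between -0.09 and 0.80. No replicate number pairs tumors across groups in the labels, and the members share libraries, so these counts describe tumors and are no test.

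**Figure D5:**
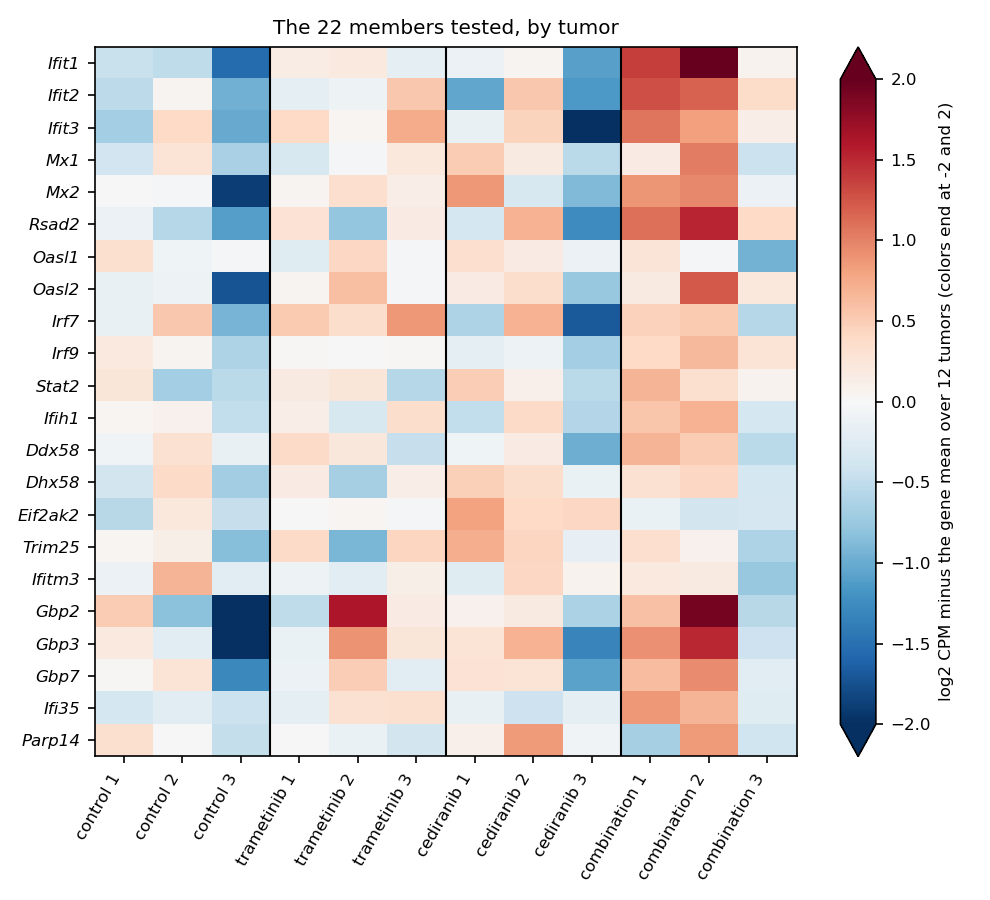
log2 CPM of the 22 tested members (rows) minus the mean of each gene over the 12 tumors (columns, by treatment), with colors ending at -2 and 2. Control replicate 3 and cediranib replicate 3 are blue for most members, and combination replicates 1 and 2 are red for most.

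The levels of other cell types were measured beside these differences. Macrophage markers (10 of 10 genes tested) summed to 408, 698 and 493 CPM in control, 314, 438 and 328 CPM in trametinib, 360, 458 and 298 CPM in cediranib and 255, 324 and 185 CPM in combination treated tumors. The combination group held the lowest sums by median. Within the cediranib and combination groups, the tumors ranked by these sums as they did by Ifit1. Within the control and trametinib groups they did not. Neutrophil markers (2 of 6 tested, with Ly6g and Retnlg at 0 counts) summed to 3.94, 7.17 and 2.97 CPM in combination treated tumors and to at most 1.72 CPM in every other tumor. Sums of the neutrophil and epidermal lists were thus higher in all 3 combination treated tumors than in the other 9. The neutrophil sums ranked tumors as Ifit1 did in the cediranib and combination groups, but not in the control and trametinib groups. Whether the neutrophil list read neutrophils or other cells was not tested. Fibroblast markers (7 of 7 tested) summed to 2046 to 21025 CPM in control, 8093 to 36888 CPM in trametinib, 1589 to 6741 CPM in cediranib and 2641 to 5329 CPM in combination treated tumors. Skeletal muscle markers (6 of 6 tested) reached 16656 CPM in control replicate 2 and 23347 CPM in trametinib replicate 2, against 5.35 to 1941 CPM in the other 10 tumors. Pan-leukocyte markers (4 of 5 tested) summed to at least 70.5 CPM in each control tumor, 47.0 to 63.4 CPM in trametinib, 46.2 to 75.2 CPM in cediranib and 40.4 to 63.3 CPM in combination treated tumors. Endothelial markers were at 45.5 to 108 CPM in trametinib, 108 to 310 CPM in cediranib and 30.3 to 74.6 CPM in combination treated tumors. T and NK cell markers (0 of 10 tested) summed to at most 1.91 CPM in any tumor, with Cd3g, Klrb1c and Gzma at 0 counts. Plasmacytoid dendritic cell markers (0 of 4 tested) reached at most 2.33 CPM, with Klra17 and Cox6a2 at 0. The part of epidermal, macrophage, neutrophil, fibroblast, muscle and endothelial content in the values of the members was not tested.

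Genes up- and downstream of the members were read from lists of the pathway. Of 16 ligand and receptor genes, 1 was tested, the receptor chain Il10rb, and 0 passed the FDR. The interferon genes Ifna1, Ifna2, Ifna4, Ifnab, Ifnb1, Ifne, Ifnk, Ifng, Ifnl2 and Ifnl3 and the receptor chain Ifnlr1 had 0 counts in every library. Ifnar1 had at most 11 counts and Ifnar2 at most 6 in any tumor. Because probes capture genes unequally, such counts do not show that a gene was absent or low in the cells. All 12 genes of JAK-STAT signal transduction and feedback were tested, and 1 of them, Irf1, passed the FDR in 1 of the 8 contrasts. Irf1, an activator of interferon target genes, rose by 0.70 for trametinib averaged over cediranib (SE 0.22, edgeR FDR = 0.0457), where 16.7% of all genes passed the FDR. It missed the FDR in 8 of 12 fits without a tumor (up to 0.108).

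Of 17 genes that sense nucleic acid upstream of interferon, 8 were tested. Myd88, the adaptor of Toll-like receptors, fell by 0.74 with trametinib against control (SE 0.20, edgeR FDR = 0.0472), as the 1 gene of these 8 to pass, against 6.12% of all genes at the FDR alone. It missed the FDR in 10 of 12 fits without a tumor (up to 0.166), in a fit of the groups compared alone (0.102) and with a replicate block (0.0561). Samhd1, which depletes nucleotides, rose by 0.56 for trametinib averaged over cediranib (SE 0.15, edgeR FDR = 0.0244), again as 1 of 8, against 16.7% of all genes. It missed the FDR without control replicate 3 (0.0618), trametinib replicate 2 (0.0586), cediranib replicate 3 (0.0548) or combination replicate 2 (0.0544). Of 4 genes of ISG15 conjugation, 1 was tested, the activating enzyme Uba7, and it passed the FDR in 0 contrasts. Of 44 other interferon-induced genes 19 were tested, and for combination against control 1 was called higher and 1 lower, against 3.61% of all genes called. Ddx60, a helicase linked to RIG-I signaling, was at 2.30, 1.52 and 1.31 CPM in control and 4.44, 6.90 and 4.83 CPM in combination treated tumors, and rose by 1.64 (SE 0.40, edgeR FDR = 0.0245). Ifi207, of the nucleic acid binding PYHIN family, was at 0.937, 1.82 and 1.01 CPM in control and 0.303, 0.454 and 0.186 CPM in combination treated tumors, and fell by 1.95 (SE 0.55, edgeR FDR = 0.0427), at no more than 18 counts in any tumor. The 3 combination treated tumors did not overlap the 3 control tumors in either gene. The call of Ddx60 was lost without control replicate 2 (FDR = 0.0853), control replicate 3 (FDR = 0.0991) or combination replicate 2 (FDR = 0.0820), and that of Ifi207 in 10 of 12 fits without a tumor as well as with DESeq2 (FDR = 0.0532), on library totals alone (FDR = 0.0524) and with no filter (FDR = 0.0791). The median log2 fold change of these 19 genes for combination against control was 0.21, with 11 above 0, against 0.68 for the members.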

How the data were processed

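RNA of 12 SVR xenograft tumors was analysed, 3 per group, with groups taken from the sample titles. Per the labels and the methods, the authors made the deposited raw counts per gene with bcl2fastq 1.8.4, STAR 2.7.1a (GRCm38) and featureCounts 1.6.0. For the annotation release, strand setting and treatment of multiply mapped reads, the settings were not given in the sources used here. Library totals ran from 9478865 to 11666094 counts, and limits derived from them cover counting error only.

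After filterByExpr (minimum count 10, minimum total 15) and TMM scaling, edgeR 4.0.16 (R 4.3.3) gave quasi-likelihood tests of 8 contrasts from 1 fit of all 12 libraries. Calls needed an FDR under 0.05, Benjamini-Hochberg adjusted across the whole table of tested genes, and a log2 fold change of 1.5 or more in size. Standard errors were the absolute log2 fold change over the square root of F. The averaged contrasts take the mean effect of 1 drug with and without the other, and the interaction is the effect of cediranib with trametinib minus that without. Log2 CPM used a prior count of 2. Levels per kilobase used the deposited gene length. The test was checked on simulated data.

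The members and lists were chosen with earlier results of these data known, so lists are described by counts and medians with no test of their own. Shown with a value in every tumor were members past an FDR of 0.05 in any contrast, Isg15 and, in each role group with no such member, the one with the highest mean CPM. Overlaps with other genes, gene types and shared 50-base windows came from GENCODE M21. Alternatives were RLE factors, library totals alone, no filter, the likelihood ratio test, DESeq2 1.42.0, fits of the compared groups alone, no minimum fold, a replicate block and leaving out each tumor. The values of 1 gene of the pathway lists are not reported here.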

Additional observations from a re-analysis of the deposited data

How the results depend on the processing

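For combination against control, where 1 member was called, 2 were called (Ifit1 and Rsad2) with RLE factors, no filter, the likelihood ratio test, DESeq2, the compared groups alone and the replicate block, and 3 (with Ifit2) on library totals alone. Leaving out 1 tumor gave 0 to 2, with 0 without control replicate 3 or combination replicate 2. For combination against cediranib the 1 call became 0 in a fit of the compared groups alone and 0 to 2 when 1 tumor was left out. For trametinib averaged over cediranib, 1 member passed without a minimum fold, against 0. No alternative called a member in the other 5 contrasts. On library totals alone the median of all genes shifted to 0.13 for combination against control, beside a member median of 0.80, and the split of 19 of 22 members above 0 became 20. Fits without a tumor gave member medians of 0.43 to 0.86 for combination against control, 0.14 to 0.58 for trametinib against control, 0.27 to 0.82 against cediranib, 0.09 to 0.55 against trametinib and -0.28 to 0.33 for the interaction, which thus took either sign. Without the filter, 1129 genes were called for combination against control in place of 466, and 324 in place of 0 for cediranib against control. Deviations of the 18 same-numbered pairs of tumors had correlations of -0.22 to 0.36, with 3 over 0.1, against -0.44 to 0.35 for other pairs. With 3 tumors per group, this check cannot exclude a pairing. The replicate block moved the calls for combination against control from 1 to 2 members. The 15 untested members had at most 17 counts in any tumor. Whether depth, probe capture or low expression kept them low was not tested.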
